A study of Mus musculus with 12 samples.

Results

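The small RNA genes of the deposited expression tables were examined, that is, microRNA genes (symbols starting with Mir and a number), box H/ACA snoRNA genes (Snora) and box C/D snoRNA genes (Snord). Among 23284 genes in the FPKM table, 746 symbols belonged to these 3 classes, 637 Mir, 36 Snora and 73 Snord. Genes were taken as members when they reached an FPKM of 1 or more in at least 3 of the 12 libraries, and 24 did so, 13 Mir, 8 Snora and 3 Snord. FPKM is the fragment count of a gene scaled to its length and to the mapped fragments of the library. The members were therefore chosen by their FPKM, which is given below as a description.

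The libraries came from ILC3s (group 3 innate lymphoid cells) sorted from the small intestine of HR-1 hairless mice aged 18 weeks. PA milk mice had suckled from mothers on a chow rich in palmitic acid, and ND mice had received normal milk. Cells of the intraepithelial layer (IEL) and of the lamina propria (LP) gave 3 libraries of each diet, so there were 4 groups, named PA IEL, ND IEL, PA LP and ND LP. The sort took cells without lineage markers that carried Nrp1, CD25, Thy1.2 and CD4 according to the study's methods, while a figure legend of the study lists CD45 where the methods list CD4. The labels do not say whether 1 library was 1 mouse or a pool, so the spread between replicates may be technical.

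MicroRNAs are cut from hairpins in longer primary transcripts by Drosha and Dicer1, and the mature RNA guides Argonaute proteins to messenger RNAs through its seed. In vertebrates, snoRNAs mostly lie in introns of host genes and are trimmed out of the spliced intron. Box H/ACA snoRNAs guide pseudouridylation with Dkc1, and box C/D snoRNAs guide ribose methylation with Fbl. Neither mature microRNAs nor snoRNAs carry a poly(A) tail as a rule, whereas primary transcripts and host messenger RNAs do. The SMART-Seq kit used here primes cDNA at poly(A) tails, copies it at full length and amplifies it by PCR, and does not mark the strand.

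The mature sequences of the microRNA members are shown because none of the 14 found for 11 of the 13 Mir members shared its seed with another. They were taken from RefSeq (GRCm38.p6), with the seed, bases 2 to 8, in capitals:
miR-703: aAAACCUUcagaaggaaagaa
miR-686: aUUGCUUCccagacggugaaga
miR-1938: cGGUGGGAcuuguaguucgguc
miR-671-5p: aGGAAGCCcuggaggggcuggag
miR-762: gGGGCUGGggccgggacagagc
miR-2861: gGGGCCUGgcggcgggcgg
miR-22-3p: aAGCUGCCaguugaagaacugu
miR-682: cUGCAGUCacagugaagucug

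One snoRNA sequence of each class is shown for the box that defines it. They are GENCODE M21 transcripts on GRCm38. In Snord96a the capitals mark CTGA, the box D letters, within the last 20 bases. In Snora78 they mark ACA, found 3 bases before the 3′ end:
Snord96a: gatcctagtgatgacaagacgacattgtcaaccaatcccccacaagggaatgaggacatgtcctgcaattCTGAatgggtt
Snora78: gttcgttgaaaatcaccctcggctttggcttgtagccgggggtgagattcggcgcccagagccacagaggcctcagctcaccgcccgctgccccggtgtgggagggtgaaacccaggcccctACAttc

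ACA at that place was found in 7 of the 8 Snora members, with Snora28 the exception, and in 82.5% of the 40 annotated Snora genes. CTGA was found in all 3 Snord members and in 97.9% of the 97 annotated Snord genes, against 4 of the 40 Snora genes. Only the strand of the snoRNA was searched.

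Most small RNA genes had no signal in these libraries. FPKM was 0 in all 12 libraries for 680 of the 746 symbols, above 0 for 66, and at 1 or more in 1 library for 27 and in 2 libraries for 15. Mir703 was the only member above 0 in all 12 libraries. Just inside the limit, with the third-highest FPKM as the measure, were Snora31 at 64.6, Snora7a at 86.8 and Mir546 at 142. Just outside were Mir17hg at 0.136, and Snord55 and Mir3074-1, both at 0. Mir17hg differs from the rest in kind, as it is the long host transcript of a microRNA cluster and reached 1110 scaled counts in 1 library. Well-known microRNAs of immune cells were mostly at 0. Of 34 such genes in the table, among them Mir155, Mir142 and Mir150, 32 were at 0 throughout, Mir223 was above 0 in 1 library and Mir22 was the only member.

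The 24 members gave values that were either 0 or high. Of their 288 values, 144 (50.0%) were 0, against 18.0% of the values of the other genes that passed the same limit. No value lay between 0 and 1 FPKM. The lowest value above 0 was 19.3, the median of those above 0 was 733 and the highest was 94237.

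The scaled counts of the same genes were low. Scaled counts are fragments per gene divided by a size factor of the library and rounded. Above 0 in FPKM, members had a median of 8 scaled counts and at most 124, and 35 of the 144 values rested on 3 or fewer. In 2 of them, Mir1893 in ND LP replicate 1 and Mir686 in PA IEL replicate 1, the scaled count had been rounded to 0. In total 9 of the 24 members (37.5%) had 10 or more scaled counts in at least 3 libraries, against 99.7% of the other genes that passed. These 9 were Mir1938, Mir5107, Mir686, Mir703, Snora28, Snora68, Snora70, Snora78 and Snord22. The contrast with other genes was largely set by the FPKM limit. A scaled count was worth 10.3 FPKM or more in every member and a median of 0.0394 in other genes. So 1 scaled count passed the limit in a member but not in most other genes. For the same reason, few member values could lie between 0 and 1 FPKM.

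**Figure D1:**
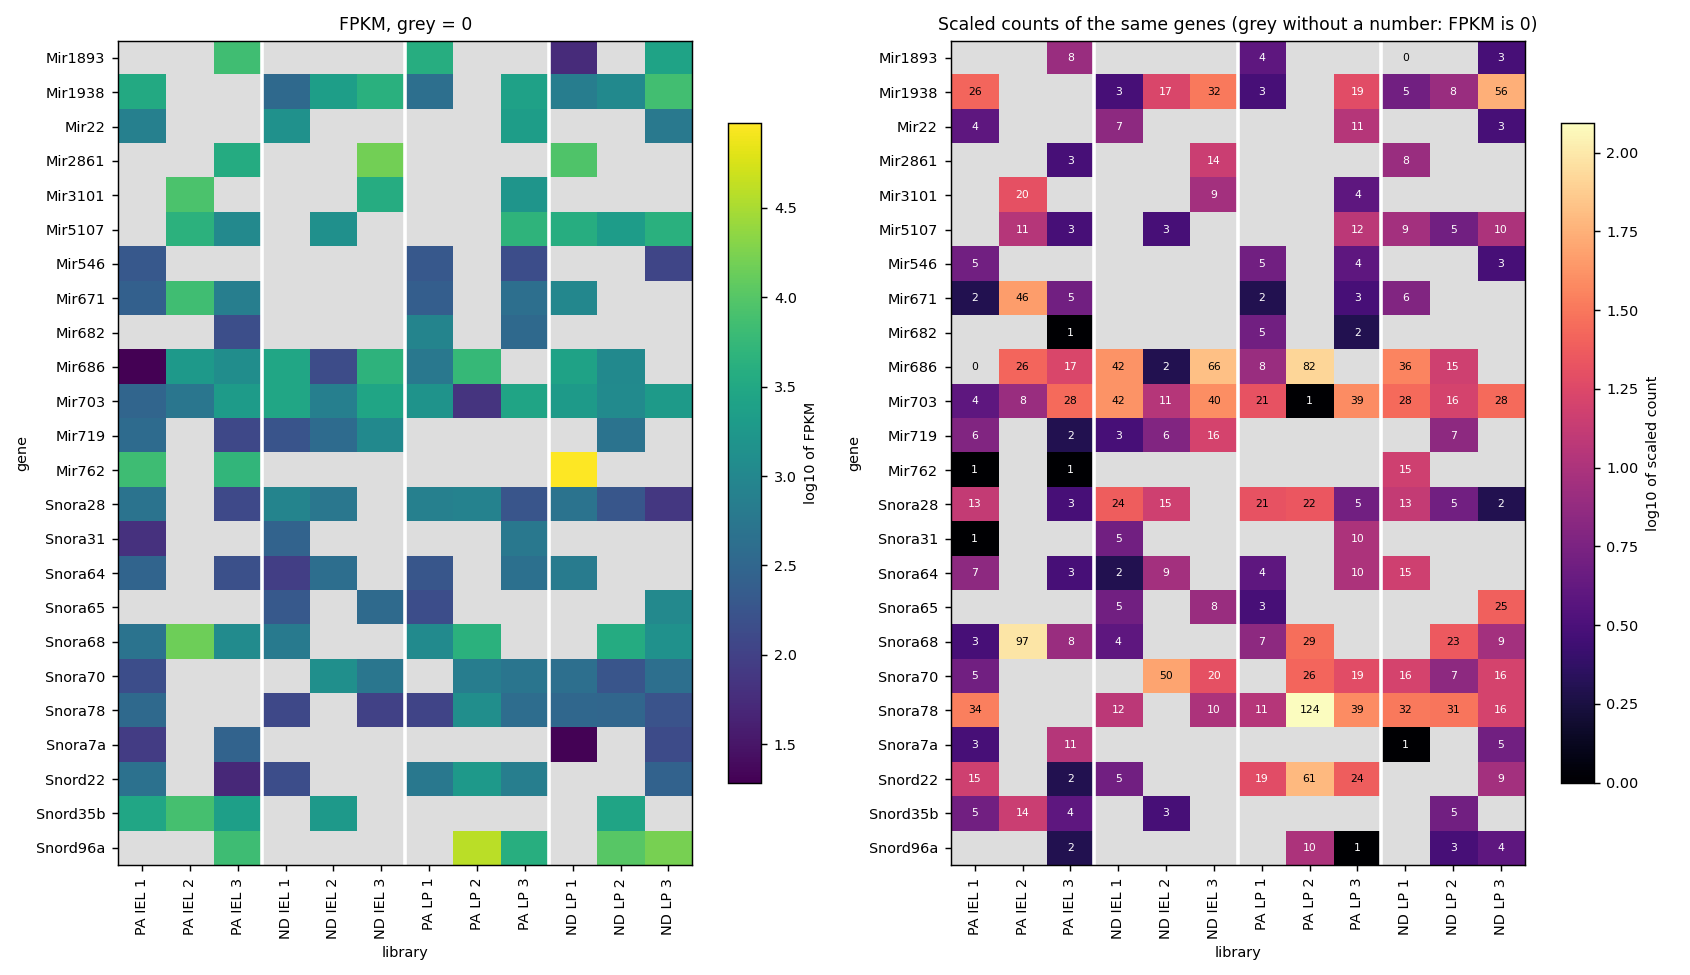
FPKM (left, log10 colour scale) and scaled counts (right, log10 colour scale with the count printed) of the 24 members in the 12 libraries, grouped by layer and diet, with grey for 0. Grey cells and high FPKM stand side by side within most rows, and the highest FPKM, Mir762 in ND LP replicate 1, has 15 scaled counts.

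A single scaled count was worth far more FPKM in a member than in other genes. The ratio of FPKM to scaled count was the same in every library, within the rounding of the scaled counts, for all 24 members. Among 9577 other genes with 200 or more scaled counts in at least 3 libraries, the largest ratio of a gene was within 5% of its smallest for 91.0%, and up to 7.93 times it in the rest, and 1 value per gene was used. The median of the ratio was 100.5 for the members and 0.0394 for 11934 other genes, a ratio of medians of 2549. Among the members it ran from 10.3 for Snora78 to 6282 for Mir762. In RefSeq Snora78 was the longest, with 157 bases, against 128 in the GENCODE transcript shown, and Mir762 the shortest, with 76. Snord96a, with 77 bases in RefSeq, had the next highest ratio, 3921. Over all genes, its median fell with annotated length, from 387 for genes of up to 100 bases through 5.30 for 150 to 200 bases and 0.407 for 300 to 500 bases to 0.0174 above 5000 bases. No gene of the table with 3 or more scaled counts had a higher ratio than Mir762.

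The same was seen against a plain calculation, in which the scaled count was divided by the annotated length in kilobases and by the library total in M (mega). In ND LP replicate 1, Mir762 had 15 scaled counts, which gave 19.96 per kilobase and M, and a deposited FPKM of 94237. For each member in its highest library, the deposited FPKM was 15.5 to 4720 times the plain value, with a median of 98.7. For 11517 other genes the median was 1.17. Division by the full annotated length thus did not give the deposited values of the short genes. Other corrections for length were not tried, and the reason for the difference was not tested.

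**Figure D2:**
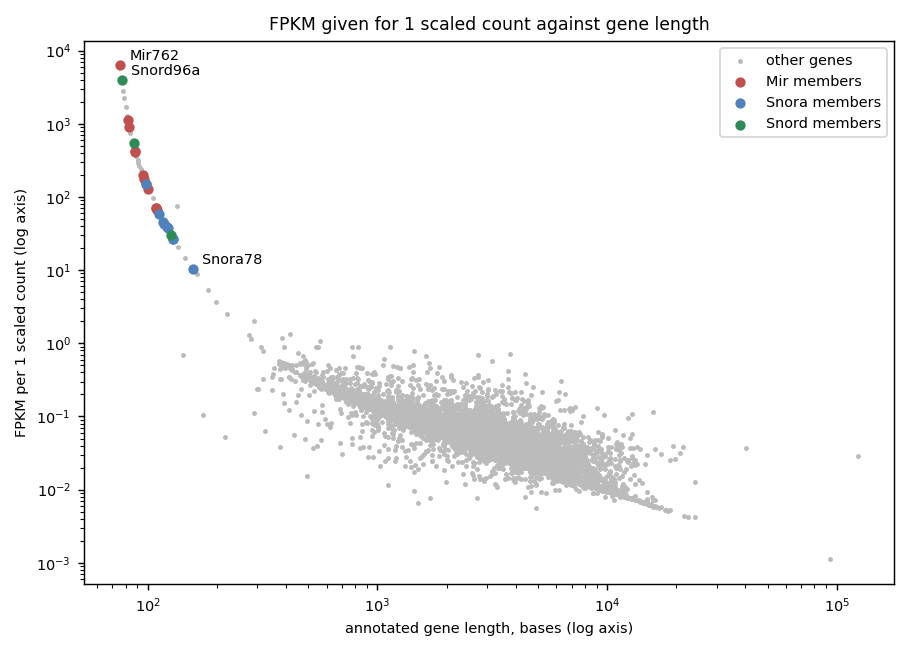
FPKM per 1 scaled count (log axis) against annotated gene length in bases (log axis), one point per gene, members coloured by class. The members lie at the left end, from 10.3 (Snora78) to 6282 (Mir762), where the points rise more steeply than over longer genes.

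Few counts made up a visible part of a library in FPKM. Over the 12 libraries the members held 2110 scaled counts, 0.00170% of the total, and 4.52% of the summed FPKM. Their share of a library's FPKM ran from 1.02% in ND IEL replicate 2 to 14.7% in ND LP replicate 1, where Mir762 alone had 94237. A member was the gene of highest FPKM in 4 libraries, Mir762 in ND LP replicate 1 and Snord96a in PA LP replicate 2 and ND LP replicates 2 and 3. The Snord96a values there rested on 10, 3 and 4 scaled counts. In 2 more libraries the top gene was a small RNA gene that was not a member, Mir1306 in ND IEL replicate 3 with 9 scaled counts and Snord55 in PA LP replicate 3 with 5.

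**Figure D3:**
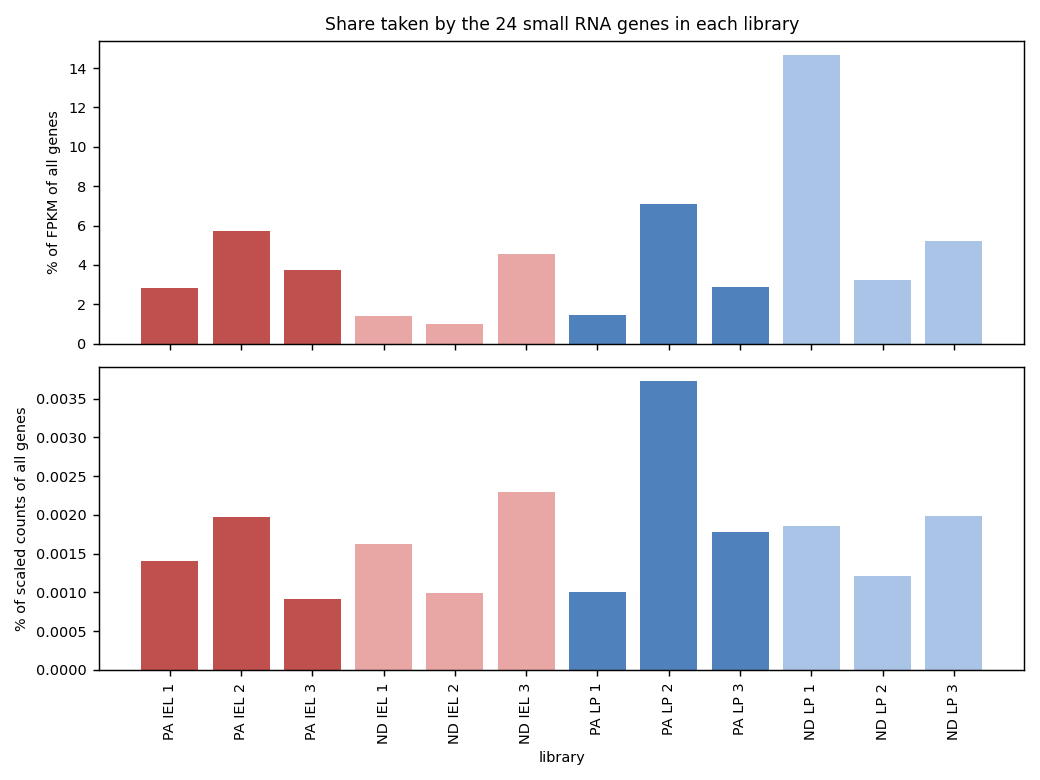
Share of the 24 members in the summed FPKM (top, %) and in the summed scaled counts (bottom, %) of each library, one bar per library. The FPKM share is highest in ND LP replicate 1 (14.7%) and the count share in PA LP replicate 2 (0.00372%).

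By group, the share of FPKM was 4.11% ± 1.49 in PA IEL, 2.34% ± 1.94 in ND IEL, 3.81% ± 2.94 in PA LP and 7.70% ± 6.10 in ND LP (SD, n = 3 each). Within ND LP, replicates 2 and 3 were at 3.25% and 5.20%, so the mean rests on replicate 1. The groups overlapped for both diets and both layers. The number of members above 0 was 13.3 ± 5.51 in PA IEL, 10 ± 1.73 in ND IEL, 12 ± 3.61 in PA LP and 12.7 ± 1.53 in ND LP, and it was lowest, 7 and 8, in PA IEL replicate 2 and PA LP replicate 2. These 2 libraries also had the fewest genes at 1 FPKM or more, 4390 and 5637, against 7863 to 11378 in the others. Estimated depth was 8.76 to 14.6 M reads and the scaled counts summed to 9376529 to 11710874 per library. The 12 markers of ILC3s and of the sort, none of them at 0 in every library, took 0.0421% to 0.316% of the FPKM in PA IEL, 0.0333% to 0.0792% in ND IEL, 0.0129% to 0.0491% in PA LP and 0.0903% to 0.744% in ND LP. Of the genes of the sort, Thy1 was at 0 in PA IEL replicate 2 and PA LP replicate 2, and also in ND IEL replicate 2, PA LP replicate 1 and ND LP replicate 1. In the 2 libraries with the fewest genes Il2ra (CD25) was at 0.121 and 0.130 FPKM, Nrp1 at 0 and 0.0160 and Cd4 at 26.1 and 55.8. Epithelial markers took 0.653% to 10.6% of the FPKM in IEL and 0.0516% to 0.941% in LP. Their part in the values of the members was not tested, and fewer cells of a type cannot be told apart from less RNA per cell.

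Each member lay within or across another gene. In the annotation (GENCODE M21, GRCm38), with genes of either strand taken, 8 of the 24 overlapped an exon of a coding transcript. Another 13 overlapped an exon of another transcript type only, such as a retained intron, and 3 lay in an intron only. Mir762 entered the first class through Bcl7c on the opposite strand. Mir1938 entered the second through 54 of its 100 bases, shared with Gm7008 on the opposite strand. Of the 638 symbols at 0 throughout that had a single position, 11.6% overlapped a coding exon, 16.5% another exon, 49.4% an intron only and 22.6% no other gene. These shares were read on genes chosen by their FPKM and are a description.

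The hosts of snoRNA members described here were mostly genes of the translation machinery. Rps2, Rpl12, Rpl10 and Rpl32 code for ribosomal proteins, Eif5 for an initiation factor and Gnb2l1 (Rack1) for a ribosomal scaffold protein. Tpt1, the translationally controlled tumour protein, hosted Snora31 in an intron. Snord22 lay in Snhg1, a non-coding host of several snoRNAs. Snora78 lay in an intron of the non-coding Snhg9 and, on the opposite strand, of Rps2.

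The hosts of the Mir members were more mixed. Mir686 lay in the coding sequence of Psmb5, a catalytic proteasome subunit, and Mir671 in that of Chpf2, an enzyme of chondroitin synthesis. Mir546 lay in the 3′ UTR of Ctdsp2, and Mir5107 shared 12 of its 88 bases with exons of Cd74, the invariant chain of MHC class II. Mir762 lay in an exon of Bcl7c on the opposite strand. Without strand marks, reads of the 2 genes cannot be told apart. Mir1938 lay in an intron of Ifrd1, and Mir22 in an exon of its non-coding host Mir22hg (2210403K04Rik in the table).

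Host and member stood in reverse order on the 2 scales. There were 22 pairs of a member and a table gene that contained it on the same strand, covering 21 members. Over these pairs the member was above 0 in 130 values, and there the host was above 0 in 121. In the 9 others the host was listed at 0, 8 times Snhg9 beside Snora78 and once Snhg1 beside Snord22. The member's FPKM was above that of the host in 97 of the 130 values, whereas its scaled count was above that of the host in 10. Where both were above 0, the median member to host ratio was 5.15 in FPKM and 0.349% in scaled counts. In the other pair values the member was at 0, and in 9 of those the host was at 0 as well.

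**Figure D4:**
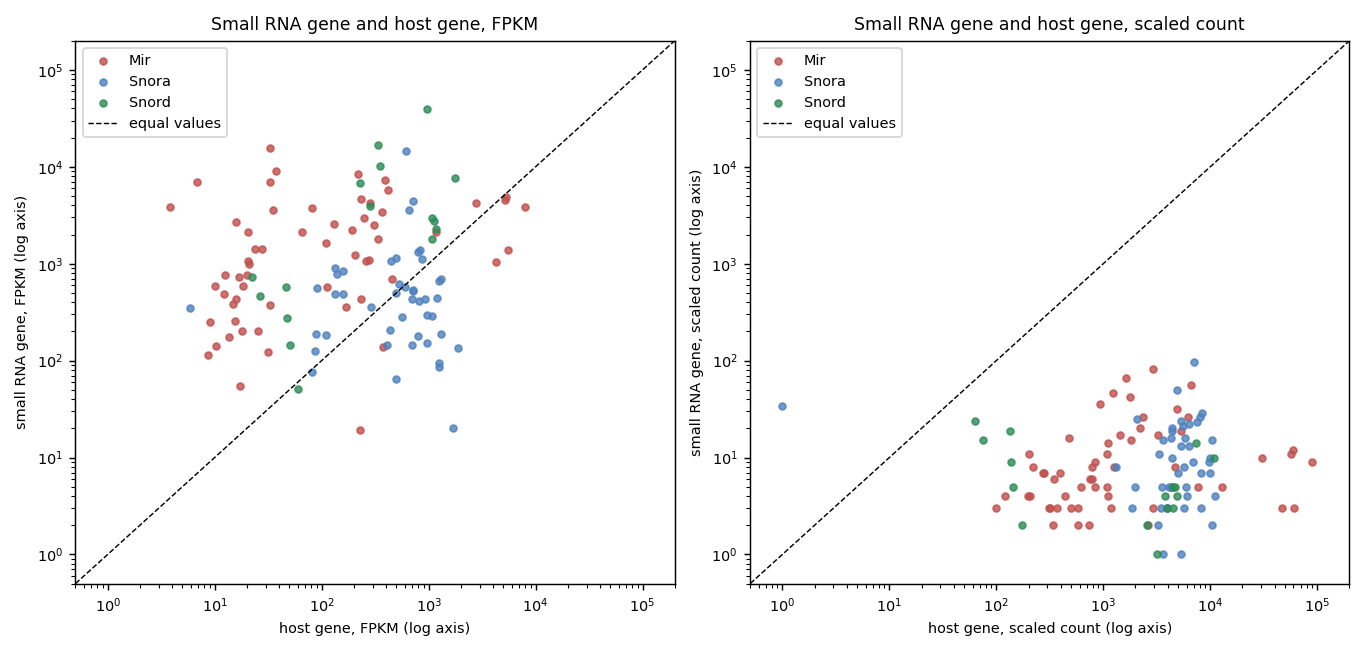
Member against host gene in the same library, as FPKM (left) and as scaled counts (right), log axes, one point for each pair value with both genes above 0 on that scale and the dashed line at equal values. Most points lie above the line in FPKM, and all but 1 (Snora78 beside Snhg9) lie below it in scaled counts.

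Further genes shared sequence with members. Of the 24 members, 6 matched a transcript of a gene elsewhere over at least 40 bases at 95% identity or more, and 2 matched a gene of the table. The matches of Mir686, Snora65, Snora68 and Snora70 were to genes outside the table, with which reads can also be shared. The Mir703 hairpin (chr5:98475556-98475664, minus strand, in an intron of Cfap299 on the other strand) was 98.2% identical over 109 bases to Eef1a1, the elongation factor gene with a mean FPKM of 1044. The Mir682 hairpin (chr13:75645046-75645141, plus strand, in the processed pseudogene Gm4149) was 99.0% identical over 96 bases to Rpl37a, a ribosomal protein gene with a mean FPKM of 872. It is shown because 95 of its 96 bases are those of Rpl37a, with the 1 differing base in capitals:
Mir682 hairpin: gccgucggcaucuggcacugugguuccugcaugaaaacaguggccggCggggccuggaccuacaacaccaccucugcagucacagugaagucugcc
Values of Mir703 and Mir682 are therefore uncertain, since reads of the copies can be split between these genes.

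The 3 box C/D members had a mean FPKM of 2743 and 186 scaled counts in all, against 1697 and 1026 for the 13 Mir members and 469 and 898 for the 8 box H/ACA members. Snord96a (chr11:48802033-48802109, in Gnb2l1) was at 0, 0 and 6832 FPKM in PA IEL, at 0 in all 3 of ND IEL, with 0, 39468 and 3957 for PA LP and 0, 10245 and 16668 for ND LP. Its scaled counts summed to 20 over all libraries. It was above 0 in both layers of PA milk and in ND LP, and libraries at 0 stood beside libraries above 0 in each of these groups.

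Snord35b was at 2979.9, 7634 and 2299.7 FPKM in PA IEL, from 5, 14 and 4 scaled counts. It was at 0, 1818 and 0 in ND IEL, at 0 in all 3 of PA LP and, in ND LP, at 0, 2759 and 0. All 3 PA IEL libraries thus stood above ND IEL and above PA LP. The lowest PA IEL library had 4 scaled counts, against 3 in ND IEL replicate 2 and 5 in ND LP replicate 2. The order against ND IEL therefore rests on few counts.

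Snord22 (chr19:8725866-8725991, in Snhg1) was at 574, 1842 and 733 FPKM in PA LP and at 0, 0 and 278 in ND LP, from 19, 61 and 24 scaled counts against 0, 0 and 9. In IEL it was at 459, 0 and 50.6 with PA milk, against 145, 0 and 0 with ND. The groups did not overlap in LP and did in IEL. Snhg1 did not stand in that order in LP, with 46.8, 0 and 22.2 FPKM in PA milk and 23.7, 44.2 and 47.8 in ND.

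Among the box H/ACA members Snora78 (chr17:24719676-24719832) had the most scaled counts, 309 in all. It had 34, 0 and 0 scaled counts in PA IEL, 12, 0 and 10 in ND IEL, then 11, 124 and 39 in PA LP, with 32, 31 and 16 in ND LP. It was above 0 in all 6 LP libraries and in 3 of 6 IEL libraries. In ND the 3 LP libraries, at 333, 321 and 169 FPKM, were above the IEL libraries, at 120, 0 and 99.8.

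Snora68 had its highest value in PA IEL replicate 2, 14672 FPKM from 97 scaled counts. The other PA IEL libraries were at 495 and 1146 FPKM and the ND IEL libraries at 623, 0 and 0. In LP it was at 1130.0, 4412 and 0 with PA milk, against 0, 3563 and 1398 with ND. Neither layer separated the diets.

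Snora70 (chrX:74272492-74272620, in Rpl10) was above 0 in 8 libraries, at 145 to 1324 FPKM, and Snora28 (chr12:111540946-111541067, in Eif5) in 10, at 77.1 to 902. Snora64 (chr17:24720789-24720905, in Rps2) was above 0 in 7 libraries, at 93.8 to 665 FPKM. Snora7a, which overlaps the annotated 5′ UTR of Rpl32, was at 86.8, 0 and 290.4 FPKM in PA IEL, at 20.4, 0 and 136 in ND LP, and at 0 in all 6 libraries of the other groups. Snora31 and Snora65 were above 0 in 3 and 4 libraries. The hosts Rpl10, Eif5, Rps2, Rpl32, Tpt1 and Rpl12 were above 0 in all 12 libraries.

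The Mir members with the most counts were Mir686, Mir703 and Mir1938, with 294, 266 and 169 scaled counts in all. Mir703 was at 307, 547 and 2016 FPKM in PA IEL, 2949.6, 761 and 2828 in ND IEL, 1520.3, 68.5 and 2747 in PA LP, with 1949.6, 1126 and 1953 in ND LP. Both diets overlapped in both layers. The lowest value, 68.5, was that of PA LP replicate 2, a library with few genes.

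Mir686 (chr14:54616677-54616785, in Psmb5) was above 0 in 10 libraries, at 19.3 to 5795 FPKM, and at 0 in PA LP replicate 3 and ND LP replicate 3. Mir1938 (chr12:40222712-40222811, in Ifrd1) was at 3379, 0 and 0 FPKM in PA IEL and at 354, 2254 and 4200.1 in ND IEL. In LP it was at 429, 0 and 2517 with PA milk, against 695, 1086 and 7290 with ND. It was above 0 in all 6 ND libraries and in 3 of 6 PA milk libraries, with overlapping values in both layers. The PA milk zeros were in PA IEL replicates 2 and 3 and in PA LP replicate 2. PA IEL replicate 2 and PA LP replicate 2 were the libraries with the fewest genes. Ifrd1 was at 0.181 FPKM in PA IEL replicate 2, 318 in PA IEL replicate 3 and 132 in PA LP replicate 2.

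Mir671 (chr5:24592114-24592211, in Chpf2) was at 257, 6979 and 732 FPKM in PA IEL, from 2, 46 and 5 scaled counts, and at 0 in all 3 of ND IEL. In LP it was at 248, 0 and 436 with PA milk, against 987, 0 and 0 with ND. The IEL groups did not overlap. Chpf2 stood in the same order in IEL, at 15.6, 33.0 and 16.7 FPKM with PA milk, against 0.880, 0 and 8.77 with ND. All 98 bases of Mir671 are coding sequence of Chpf2.

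Mir762 (chr7:127708487-127708562) was at 6684, 0 and 5158 FPKM in PA IEL from 1, 0 and 1 scaled counts, at 94237 in ND LP replicate 1 from 15, and at 0 in the other 8 libraries. Mir2861 (chr2:32712807-32712888, in Cdk9) was above 0 in 1 library each of PA IEL, ND IEL and ND LP, at 3606, 15569 and 9058 FPKM. Mir5107 was at 3842, 2102 and 4275 in ND LP, above the ND IEL libraries at 0, 1385 and 0, and at 0, 0 and 4872 in PA LP. In PA IEL it was at 0, 4525 and 1051. The lowest ND LP library had 5 scaled counts, against 3 in ND IEL replicate 2.

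Mir22 (chr11:75463716-75463810), a microRNA found in many tissues, was above 0 in 1 library of each group, at 768, 1431, 2149 and 589 FPKM, from 4, 7, 11 and 3 scaled counts. Mir682 was at 893, 0 and 350 FPKM in PA LP, from 5, 0 and 2 scaled counts, at 151 in PA IEL replicate 3 and at 0 in all ND libraries. Mir546, Mir719, Mir1893 and Mir3101 were above 0 in 4, 6, 4 and 3 libraries. None of these genes was above 0 in all 3 libraries of a group, except Mir719 in ND IEL at 175, 375 and 1075 FPKM.

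PA milk was compared with ND to ask whether the diet of the nursing mother went with a difference in these genes within a layer. Log2(FPKM + 1) was fitted with limma over all 12502 genes that reached the same limit, so a log2 fold change here depends on the 1 added to each FPKM wherever a group holds zeros. In IEL, 13 members had a positive and 11 a negative log2 fold change (16 and 8 without the 2 libraries with the fewest genes). Their median was 0.23 against -0.30 for all genes tested (1.595 against 0.0014 without these 2 libraries). Limma called 0 of the 24 at an adjusted p under 0.05, where 0% of all genes were called, and 6 of the 24 at an unadjusted p under 0.05, where 3.58% of all genes were. The smallest adjusted p of a member was 0.947. Limma-voom on the scaled counts also called 0.

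In IEL the lowest p-values belonged to Mir671, with a log2 fold change of 10.10 ± 2.44 (SE), Snord35b with 8.26 ± 2.78, Snora7a with 4.88 ± 1.89, Snora68 with 7.89 ± 3.21 and Mir1938 with -6.64 ± 2.75. Each had an adjusted p of 0.947 with limma. On log2(scaled count + 1), the same fold changes were 3.24, 2.27, 1.86, 3.15 and -2.15. Mir671 and Snord35b were the 2 members whose PA milk libraries all lay above ND in IEL, an order found for 2.97% of all genes, and no member had the opposite order, found for 5.22%. Chpf2, the host of Mir671, had a log2 fold change of 3.03 ± 1.30.

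In LP, 12 members had a positive and 12 a negative log2 fold change. Their median was -0.02 against -0.36 for all genes (-0.04 against -0.05 without the 2 libraries with the fewest genes). Again limma called 0 of 24, with 0% of all genes called, and 3 of 24 had an unadjusted p under 0.05, against 4.7% of all genes. The smallest adjusted p was 0.979. These 3 were Snord22 with a log2 fold change of 7.14 ± 2.39, Mir682 with 6.09 ± 2.18 and Mir5107 with -7.59 ± 3.35. Snord22 was the only member whose groups did not overlap in LP, with PA milk above ND, as for 2.97% of all genes, and no member had the opposite order, found for 6.6%. Snhg1, its host, had a log2 fold change of -1.87 ± 1.80. Limma-voom on the scaled counts called 0.

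**Figure D5:**
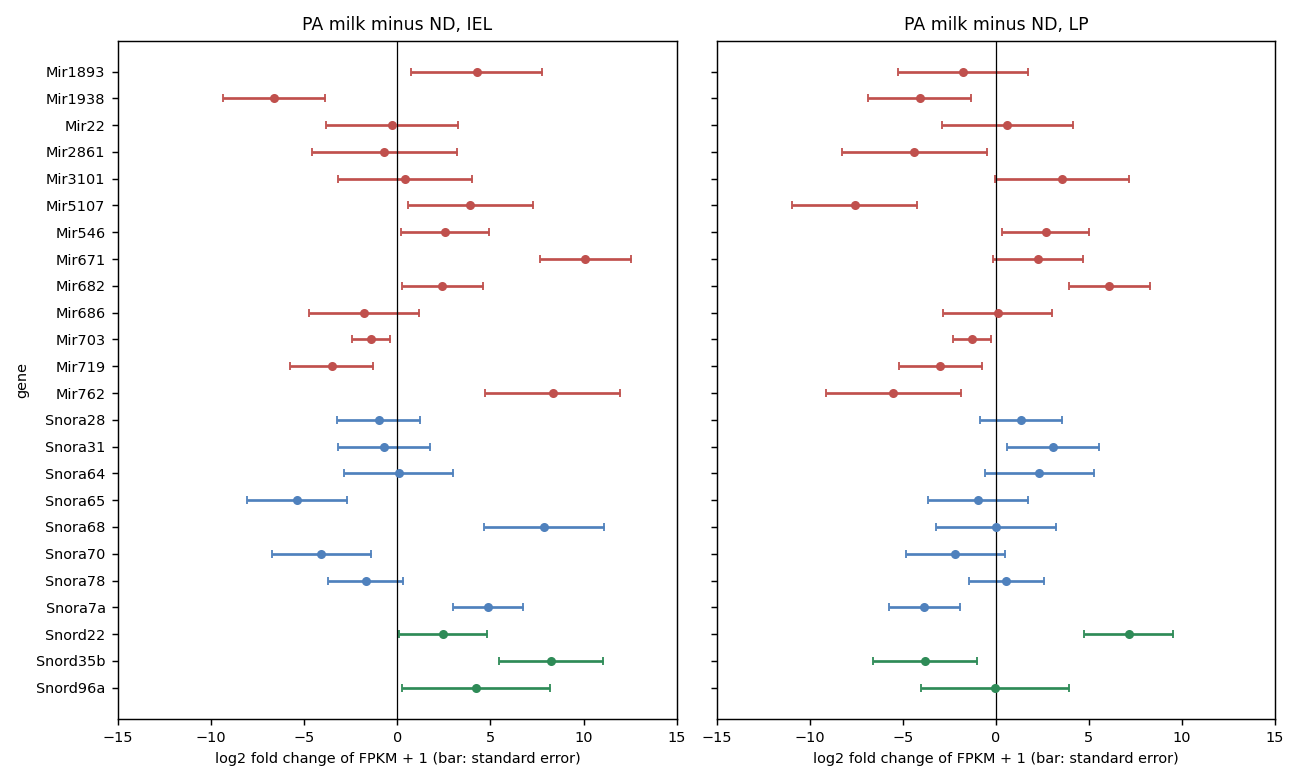
Log2 fold change of FPKM + 1, PA milk minus ND, with its standard error, for each member in IEL (left) and LP (right), from limma over 12 libraries. Standard errors run from 1.01 (Mir703) to 3.98 (Snord96a), and 0 members pass an adjusted p of 0.05.

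The difference between the 2 diet effects, LP minus IEL, was tested in the same fit. Limma called 0 of 24 members, with 0% of all genes called, and 5 members had an unadjusted p under 0.05, against 2.34% of all genes. These were Snora7a at -8.72 ± 2.67, Snord35b at -12.07 ± 3.93, Mir762 at -13.85 ± 5.11, Mir5107 at -11.50 ± 4.73 and Mir671 at -7.84 ± 3.45 on the log2 scale, each with an adjusted p of 0.9999. For these genes the IEL difference was positive. In LP it was negative for all but Mir671, where it was 2.26.

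LP was also compared with IEL within each diet. In ND, limma called 0 of 24 members, against 0.032% of all genes, and 3 had an unadjusted p under 0.05, against 6.63% of all genes. They were Mir719 with a log2 fold change of -5.71 ± 2.22, Mir5107 with 8.19 ± 3.35 and Snord96a with 9.12 ± 3.98. Mir5107 and Snora78 were the members whose LP libraries all lay above IEL in ND, as for 9.34% of all genes, and no member had the opposite order, found for 9.95%.

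In PA milk, limma called 0 of 24, against 0.144% of all genes, and 5 had an unadjusted p under 0.05, against 10.6% of all genes. Snord35b, at 0 in the 3 LP libraries, had the lowest adjusted p, 0.165, with a log2 fold change of -11.87 ± 2.78. That value became -15.19 with 0.1 added in place of 1, and -2.94 on scaled counts. Snord35b was called by 3 of 20 alternative fits, whose adjusted p with limma ran from 0.00376 to 0.543. These were the fit to the 2 groups alone (0.00376), the fit with the replicate number as a block (0.0429) and the fit without ND LP replicate 2 (0.0391). Its LP libraries all lay below IEL, as for 4.06% of all genes. Snora78 was next, with 5.78 ± 2.01 and an adjusted p of 0.393. Snord22 had the opposite order to Snord35b, with all LP libraries above IEL, as for 4.51% of all genes.

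Fold changes of members were larger than those of their hosts in FPKM and less so in scaled counts. The median absolute log2 fold change between diets was 3.04 in IEL and 2.497 in LP for the 24 members, and 0.45 and 0.44 for 24 host genes. On log2(scaled count + 1) it was 1.03 and 0.93 for the members and 0.46 and 0.45 for the hosts. Member and host had the same sign in 15 of 22 pairs in IEL and in 12 of 22 in LP. No host passed an adjusted p of 0.05 with limma in any comparison.

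Genes for the proteins that make and use these RNAs were mostly detected. Of 24 genes for microRNA processing and effector proteins in the table, 22 were above 0, and 21 were tested. Limma called 0 of the 21 in either layer, with 8 positive and 13 negative log2 fold changes in IEL and 5 and 16 in LP. Dicer1, which cuts the hairpin, had -0.48 ± 1.05 in IEL and 1.18 ± 1.05 in LP, and Drosha, which releases it, 0.08 ± 1.25 and -0.94 ± 1.25. Dicer1 was at 0, 31.7 and 1.14 FPKM in PA LP, so its LP value rests on PA LP replicate 2.

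Of the 6 box C/D core and associated protein genes, 5 had a positive log2 fold change in each layer, with a median of 0.66 in IEL and 0.69 in LP, and limma called 0. Fbl, the methyltransferase, had 0.73 ± 0.61 and 0.77 ± 0.61. Among the PA IEL libraries, replicate 2 was highest for all of the box C/D genes but Rrp9, which was at 0 there. Nolc1, Nop58 and Nhp2l1 were at 166, 149 and 464 FPKM there, against at most 27.8, 47.2 and 199 in the other PA IEL libraries. The part of replicate 2 in the box C/D median was not tested. Of the 7 box H/ACA genes, 4 were positive in each layer and 0 were called. Dkc1, the pseudouridine synthase, had -1.78 ± 1.19 and 0.09 ± 1.19. It was at 22.9, 0.0280 and 34.1 FPKM in PA IEL and at 36.9, 38.2 and 22.7 in ND IEL. The IEL value of Dkc1 thus rests on PA IEL replicate 2. Of 13 tested non-coding host genes such as Snhg1, 12 had a negative log2 fold change in IEL, with a median of -0.87, and 6 in LP, with 0 called. PA IEL replicate 2, the library with the fewest genes, was at 0 for Snhg4, Snhg5, Snhg6, Snhg7, Snhg8, Snhg10, 1500012F01Rik and Dleu2. Snhg1 and Snhg12 were at 0.272 and 0.183 FPKM there, and Gas5, Snhg3 and Snhg9 at 103, 63.9 and 58.3. The part of this library in the IEL signs was not tested. In all genes the share with a positive value was 39.5% in IEL and 37.4% in LP.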

How the data were processed

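The authors sequenced cDNA made with the SMART-Seq v4 Ultra Low Input kit from sorted cells. Per the labels and the study's methods, reads were mapped to mm10 with TopHat2 2.1.1, Bowtie2 2.2.8.0 and SAMtools 0.1.18. The authors then deposited FPKM values from Cufflinks 2.2.1 (Cuffdiff 2.2.1 is also named). The gene annotation is not given in the sources used here. The count table the authors deposited holds a score, that is, counts divided by a size factor and rounded, so tests for raw counts were not used.

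All 12 libraries (4 groups of 3, taken from the labels) entered 1 fit of log2(FPKM + 1) with limma 3.58.1 in R 4.3.3, with a variance trend, over 12502 genes at 1 FPKM or more in 3 or more libraries. Adjustment was by Benjamini-Hochberg over all of them, threshold 0.05. With 3 libraries against 3, an exact permutation test could not give less than 0.1. Depth in reads was estimated from the smallest step of the low scaled values in each library, tested on simulated data. There were no molecular identifiers, so counts are not independent molecules.

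Members and gene lists were chosen with earlier results of these data known. Named were, per class, the 5 members highest in mean FPKM and in mean scaled count, the 5 with the lowest p in each diet comparison, the 3 on each side of the limit, members of 2 microRNA lists, and hosts. Mir719, Mir1893, Mir3101 and Snora65 fall outside that rule and were named after their values were seen. Positions and overlaps came from RefSeq (GRCm38.p6) and GENCODE M21, copies from blastn 2.17.0. Tables were made with Python 3.11.15, pandas 2.3.3 and numpy 2.4.6, plots with matplotlib 3.10.9. Sequences of Mir5107 and Mir1893 were not used here. The hosts of 2 snoRNA members are not reported here by name.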

Additional observations from a re-analysis of the deposited data

How the results depend on the processing

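Counts of called members stayed at 0 for PA milk against ND in IEL and in LP, for the difference between these and for LP against IEL in ND, under upper quartile scaling, no filter, a minimum of 10 scaled counts, the 2 groups alone, the replicate block, a pseudocount of 0.1, scaled counts, limma-voom, without the 2 libraries with the fewest genes and without each library. For LP against IEL in PA milk, the count rose from 0 to 1 (Snord35b) with the 2 groups alone, with the replicate block and without ND LP replicate 2, and leaving out each library gave 0 to 1. Same-numbered libraries did not deviate together (r from -0.12 to 0.07 across genes), and the labels do not say whether they came from the same mice. The replicate block, which joined same-numbered libraries across both diets and both layers, changed no other call of a member. Over all genes it gave 3 calls in place of 0 for the diets in LP. For LP against IEL in PA milk it gave 16 in place of 18. The 9 members with 10 or more scaled counts in 3 libraries became 5 when 6 libraries were asked for and 14 with a minimum of 5.

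No named member passed the threshold in a diet comparison under any alternative, but several log2 fold changes turned sign. Upper quartile scaling gave -0.31 for Mir686 and -0.51 for Snora68 in LP, limma-voom -0.083 for Snora68 in LP, and scaled counts 0.046 for Snord96a in LP. Without the 2 libraries with the fewest genes, PA IEL replicate 2 and PA LP replicate 2, the values were 1.30 for Mir22, 1.27 for Mir2861, 1.65 for Snora28 and 0.30 for Snora31 in IEL, and -2.55 for Mir686, 0.33 for Mir703, -2.35 for Snora68 and -0.31 for Snora78 in LP. Leaving out each library in turn gave ranges across 0 in IEL for Mir22 (-3.49 to 3.20), Mir2861 (-4.64 to 3.94), Mir686 (-3.38 to 0.27), Snora28 (-4.17 to 1.65), Snora31 (-2.72 to 2.01) and Snora64 (-2.47 to 2.66). In LP it did so for Mir22 (-3.07 to 3.69), Mir686 (-3.48 to 3.70), Mir703 (-2.32 to 0.33), Snora68 (-3.71 to 3.71), Snora70 (-3.83 to 0.90), Snora78 (-0.31 to 1.45) and Snord96a (-4.60 to 4.49). The cause was not tested. With 35 of 144 values at 3 or fewer scaled counts, a value of 0 in a library was not distinguishable from a low level at this depth.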

Other observations

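Below the limit, 42 small RNA genes were above 0 in 1 to 5 libraries. Mir192 and Mir215, microRNAs that are abundant in intestinal epithelium, were above 0 only in PA IEL replicate 3, at 4333 and 792 FPKM from 12 and 13 scaled counts. In that library the 14 epithelial marker genes together took 6.94% of the FPKM, and in ND IEL replicate 2, where they took 10.6%, Mir192 and Mir215 were at 0. Mir223, a microRNA of myeloid cells, was above 0 only in ND LP replicate 3, at 70.1 FPKM from 1 scaled count. Mir25 reached 21019 FPKM from 28 scaled counts in PA LP replicate 2, and Mir1306 reached 20327 from 9 in ND IEL replicate 3.

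Of 29 other short non-coding RNA genes in the table, 7 were above 0 and 3 reached the limit. Vaultrc5, a vault RNA gene, was above 0 in 11 libraries with at most 74.95 FPKM from 110 scaled counts. Rpph1, the RNA of RNase P, was above 0 in 7 libraries with at most 37.2 FPKM from 47 scaled counts, and Rnu11, a minor spliceosomal RNA, in 4 libraries with at most 1133 FPKM from 15.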
